A study of Mus musculus with 8 samples.

Results

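Cadherins and protocadherins were examined in ribosome-associated RNA from cortical synaptosomes of control mice and of mice lacking Erbb4 in a class of interneurons. Members were all genes whose symbol is Cdh followed by a number or starts with Pcdh, and 57 of the 56576 genes in the table met this rule. They were 23 cadherins, 22 clustered protocadherins and 12 other protocadherins. Of these 57, 54 had a mean normalised read count of at least 10 over the 8 libraries and were tested, namely 21 cadherins, 21 clustered protocadherins and all 12 other protocadherins. Cdh17 and Pcdhb1 were at 0 in every library, and Cdh16 had a value above 0 in the library labelled mutant 4 alone (20.5).

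All mice were at postnatal day 15 and carried Lhx6-Cre, a driver for cortical interneurons that arise in the medial ganglionic eminence (MGE) or preoptic area, and the Rpl22HA/HA allele, with which Cre-expressing cells make ribosomes that carry an HA tag. The 4 control libraries came from Lhx6-Cre;ErbB4+/+;Rpl22HA/HA mice and the 4 mutant libraries from Lhx6-Cre;ErbB4F/F;Rpl22HA/HA mice, so that both genotypes carried Cre and the tag and differed at Erbb4, the receptor for neuregulins. Tagged ribosomes were pulled down from the synaptosomes, which are pinched-off nerve terminals with attached postsynaptic membrane, and the RNA bound to them was sequenced. The comparison asks which of these adhesion molecules differ in synaptic ribosome-associated RNA when the interneurons lack ErbB4. Libraries are named here by genotype and by the replicate number of their label, which is 1, 3, 4 and 5 for controls and 2, 3, 4 and 5 for mutants.

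Classical cadherins are calcium-dependent adhesion proteins that bind a partner on the neighbouring cell and are tied to actin inside the cell by catenins. Type I cadherins, such as N-cadherin, and the larger type II group are expressed in different combinations by different neurons and contribute to cell sorting and to synapse formation. Clustered protocadherins (Pcdha, Pcdhb and Pcdhg) lie side by side in the genome, and single neurons choose a few isoforms by promoter choice, which gives each cell a surface identity used for self-recognition. Non-clustered protocadherins include the delta-1 group (Pcdh1, Pcdh7, Pcdh9 and Pcdh11x) and the delta-2 group (Pcdh8, Pcdh10, Pcdh17, Pcdh18 and Pcdh19), which act in axon growth, synapse remodelling and cell sorting.

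The targeted gene did not separate the labels fully. Erbb4 had normalised read counts of 1640.1, 5377, 4306 and 3034 in controls 1, 3, 4 and 5, and of 1711, 1648, 1233 and 1048 in mutants 2, 3, 4 and 5 (log2 fold change -1.25, SE 0.35, limma unadjusted p = 0.00427, adjusted p = 0.578). It was called lower by limma, edgeR and DESeq2 under the rule given below. The library labelled control 1 lay below mutants 2 and 3, and it also had the fewest genes above 0 (28247, against 31141 to 34364 in the others) and the highest summed oligodendrocyte markers (660625, against 195597 to 353338), so the class medians, the calls and the members that rest on it are also given without it. Libraries held 51010687 to 80226984 reads on genes. Lhx6, which marks the Cre-expressing lineage, had values of 701 to 1781 in controls and 532 to 964 in mutants (log2 fold change -0.69, adjusted p = 0.578), and Rpl22, which carries the tag, 542 to 1358 and 399.9 to 695. The parvalbumin gene Pvalb was called lower (729.7 to 5896 in controls, 159 to 1439 in mutants, log2 fold change -2.08, adjusted p = 0.578).

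A gene was called changed at an unadjusted limma p of at most 0.05 with a fold change of at least 1.5, thresholds taken from the study. By this rule 3 of the 54 members tested were called (5.56%), beside 7.11% of the 29925 genes tested. Cdh23 and Pcdh12 were called higher in mutants and Pcdhb14 lower, where 3.89% and 3.22% of all genes were called higher and lower. The share of members called was therefore no larger than that of genes at large. No member passed an adjusted p of 0.05 with limma (3 passed an unadjusted p of 0.05), as against 0.0434% of all genes (8.32% at the unadjusted p), and all 3 called members had an adjusted p of 0.578. On the recovered reads, edgeR called Cdh23 higher and Pcdhb14 lower (2 members, beside 7.01% of all genes, 3.03% higher and 3.98% lower), and DESeq2 called the same 3 members as limma (beside 9.03%, with 3.91% higher and 5.12% lower). Without the library labelled control 1, 2 members were called (3.70%), beside 4.80% of all genes, and Pcdh12 was the call that was lost. Leaving out control 5 gave 7 called members (13%, beside 12.3% of all genes), mutant 2 gave 6 (11.1%, beside 7.94%) and mutant 5 gave 1 (1.85%, beside 3.81%).

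Most members had lower values in the mutants without passing the test one by one. The log2 fold change (mutant minus control) was below 0 in 40 of 54 members (74.1%), beside 46.8% of all genes, and its median was -0.27 over the members and 0.05 over all genes. It was below 0 in 14 of 21 cadherins (median -0.08), in 18 of 21 clustered protocadherins (median -0.34) and in 8 of 12 other protocadherins (median -0.14). Without the library labelled control 1 the class medians were -0.23, -0.39 and -0.23. Without control 3, which held the highest control value of most members, they were 0.10, -0.14 and -0.07, so that the sign of the cadherin median rested on that library. The class median of the log2 values, each gene centred on its mean, varied between libraries of the same genotype by an SD of 0.33 for cadherins, 0.48 for clustered and 0.30 for other protocadherins. Each SD was wider than the median log2 fold change of its class. It describes single libraries, while the fold change is a difference between means of 4 libraries, so they are not directly comparable.

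**Figure D1:**
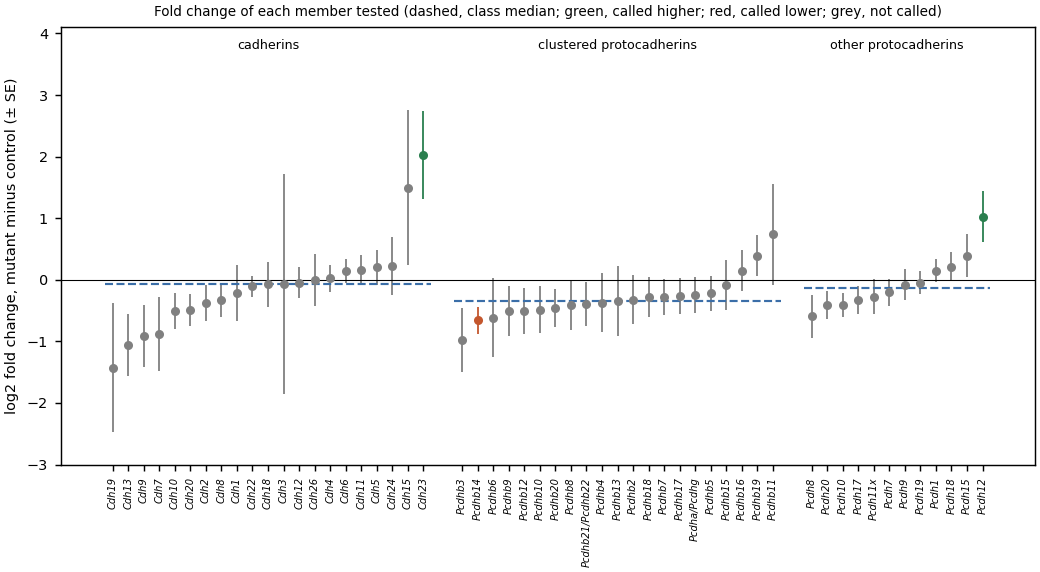
Log2 fold change (mutant minus control, vertical axis, ± SE from limma, 4 libraries per genotype) of each of the 54 members tested, grouped by class. Green marks the 2 members called higher (Cdh23 and Pcdh12), red the 1 called lower (Pcdhb14), grey those not called, and the dashed lines the class medians of -0.08, -0.34 and -0.14, all below 0.

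Levels of different genes were compared per kilobase, as the normalised read count divided by the length of the longest annotated transcript, which 49 of the 57 members had in usable form. Reads were counted on constitutive regions alone, whose length may differ from that of the longest transcript, so the order is approximate. On this scale Pcdh8 and Cdh13 were highest in controls, at 6826 ± 2216 and 6791 ± 3117 normalised counts per kb (mean ± SD, n = 4), and they did not differ beyond their spread. Pcdh9 (3810.5 ± 844), Pcdh7 (3134 ± 508), Cdh9 (2225 ± 1152) and Cdh2 (2047 ± 659) came next, each within the spread of its neighbour in this order. The Pcdhb genes with a usable length were lower, from Pcdhb20 at 852 ± 271 downwards, at rank 16 among the members with a length. The joined Pcdha and Pcdhg row and 7 Pcdhb rows (Pcdhb2, Pcdhb8, Pcdhb10, Pcdhb11, Pcdhb14, Pcdhb19 and Pcdhb21/Pcdhb22) had no usable length and are not placed in this order.

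Among the type I cadherins, Cdh2 (N-cadherin, found on both sides of excitatory synapses) was the most abundant per kilobase. Its normalised read counts were 9765, 14362, 8623 and 6903 in controls and 9312, 10344, 5626 and 5369 in mutants (log2 fold change -0.38, SE 0.29, adjusted p = 0.660). The groups overlapped, with control 3 highest and mutants 4 and 5 lowest. Cdh4 (R-cadherin) had means of 1082 ± 238 and 1084 ± 113, and the epithelial Cdh1 of 283 ± 106 and 255 ± 122. Cdh3 and Cdh15, which are P-cadherin and the muscle cadherin, were at 0 in the library labelled control 1 and did not exceed 154 in any library. The Cdh15 difference of 1.49 (SE 1.26, adjusted p = 0.687) was 0.11 without that library. None of the 5 type I cadherins was called, and their median log2 fold change was -0.06.

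The 13 type II cadherins also held no called member (median -0.11, 9 of 13 below 0). Cdh9, which takes part in synapse-specific adhesion in the hippocampus and retina, had values of 9228, 12548, 6855 and 2863 in controls and 6459, 5905, 2374 and 1987 in mutants. Its log2 fold change was -0.91 (SE 0.50, adjusted p = 0.580), and control 5 lay below mutants 2 and 3, while mutants 2 and 3 were below controls 1 and 3, and mutants 4 and 5 below controls 4 and 5. No label gives these sets of libraries, which were seen in correlations within these same data. Cdh9 was called lower when control 5 (-1.34) or mutant 2 (-1.19) was left out. Cdh12 had 6769, 9101, 5979 and 5669 in controls and 8968, 8274, 5009.6 and 4929 in mutants. Its difference of -0.05 (SE 0.26) turned to 0.0030 with edgeR and 0.0067 with DESeq2. Cdh11 (osteoblast cadherin, also made by neurons) had 3959, 9132, 5734 and 5712 in controls and 7732, 6489.9, 6259 and 5927 in mutants (log2 fold change 0.16, SE 0.25, adjusted p = 0.831), which became -0.03 without the library labelled control 1. The mutant values of Cdh11 lay close together, while its controls ran from the lowest to the highest value of the set.

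Cdh10 and Cdh7 had wide control ranges. Cdh10 ran from 3249 to 8248 in controls and from 3667 to 5063 in mutants (log2 fold change -0.51, adjusted p = 0.581), and Cdh7 from 1828 to 8094 and from 751 to 4907 (log2 fold change -0.88, adjusted p = 0.623). Cdh20 was at 859.6 to 1156 in controls and 553 to 1064 in mutants (exact permutation p = 0.0857). Cdh22 and Cdh8 had log2 fold changes of -0.11 and -0.33, and Cdh6 of 0.15. Cdh5, the VE-cadherin of endothelial junctions, was at 1384 to 3341 in controls and 2052 to 2772 in mutants (log2 fold change 0.20, SE 0.28, adjusted p = 0.811). Cdh19 and Cdh24, at no more than 532 in any library, had the lowest and the highest log2 fold change of the type II group, -1.43 (SE 1.05) and 0.22 (SE 0.47), and Cdh24 reversed to -0.23 without the library labelled control 1. Neither difference exceeded the spread between libraries. In the type I and type II groups, and in the delta-1 and delta-2 groups described further on, no member passed an unadjusted p of 0.05 with limma and none was called by edgeR or DESeq2.

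Cdh13 (T-cadherin, which is held at the membrane by a lipid anchor and lacks the tail that binds catenins) had the second highest level per kilobase. Its normalised read counts were 39838, 45067, 25410.4 and 13679 in controls and 24578, 24223, 8624 and 6508 in mutants, with means of 30999 ± 14227 and 15983 ± 9759. The log2 fold change was -1.06 (SE 0.50, limma adjusted p = 0.578, exact permutation p = 0.143), and it was not called. Control 5 lay below mutants 2 and 3, so the groups overlapped. Mutants 2 and 3 were below controls 1 and 3, and mutants 4 and 5 below controls 4 and 5. No label gives these sets, and the order did not hold for Pcdh8, where mutant 2 (30451) was above control 1 (26696). The Cdh13 difference was -0.89 without the library labelled control 1. Cdh13 was called lower when control 5 (-1.40), mutant 2 (-1.34) or mutant 3 (-1.34) was left out.

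Cdh23 (a long cadherin known as part of the tip links of inner ear hair cells, there paired with Pcdh15) was the only cadherin called. It had 117, 15.4, 43.0 and 132 normalised counts in controls and 336, 380.3, 239.9 and 99.2 in mutants. The log2 fold change was 2.02 (SE 0.72, limma unadjusted p = 0.0171, adjusted p = 0.578, exact two-sided permutation p = 0.0857). Mutants 2, 3 and 4 were above all controls, and mutant 5 was below controls 1 and 5. The smallest p that permuting 4 against 4 libraries allows is 0.0286. Without the library labelled control 1 it was 2.36 and still called, and without mutant 3 it was 1.79 and no longer passed the limit on p. The gene lies at chr10:60302750-60696491 (mm10) and overlaps Vsir, whose values were 1468 to 2795 in controls and 2568 to 2945 in mutants. Whether reads of the overlapping genes were kept apart by strand is not given in the sources used here. Pcdh15, the hair cell partner of Cdh23, was at 195 to 527 in controls and 376 to 645 in mutants (log2 fold change 0.39, SE 0.36, adjusted p = 0.705), and 0.08 without the library labelled control 1.

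Promoter sequences (the 250 bases before the annotated start, RefSeq, GRCm38.p6, read 5′ to 3′ on the gene's strand) are given for the called cadherin Cdh23, for Pcdh8 with the highest level per kilobase, and for Pcdh10, whose genotypes did not overlap. The windows are chr10:60696491-60696740 (minus strand), chr14:79771313-79771562 (minus strand) and chr3:45378148-45378397 (plus strand), and capitals mark a match to one of 4 motifs searched on both strands, the GC box GGGCGG, the TATA box TATAAA, the homeodomain core TAATTA and the E-box CAGCTG.
Cdh23: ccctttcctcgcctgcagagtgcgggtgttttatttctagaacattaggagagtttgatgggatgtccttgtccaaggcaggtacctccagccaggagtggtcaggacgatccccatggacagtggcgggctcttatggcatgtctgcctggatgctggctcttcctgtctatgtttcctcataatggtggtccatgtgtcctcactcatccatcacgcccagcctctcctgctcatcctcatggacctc
Pcdh8: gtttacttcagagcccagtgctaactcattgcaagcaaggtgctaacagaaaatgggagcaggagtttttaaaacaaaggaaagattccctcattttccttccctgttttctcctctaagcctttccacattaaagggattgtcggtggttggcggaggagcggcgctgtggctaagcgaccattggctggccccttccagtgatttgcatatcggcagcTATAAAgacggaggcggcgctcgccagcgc
Pcdh10: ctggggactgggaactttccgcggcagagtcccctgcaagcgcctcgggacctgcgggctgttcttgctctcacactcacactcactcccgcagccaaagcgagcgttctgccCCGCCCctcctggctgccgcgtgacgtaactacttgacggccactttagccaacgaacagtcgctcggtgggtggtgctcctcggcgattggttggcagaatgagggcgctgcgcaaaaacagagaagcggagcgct
The Cdh23 window held none of the 4 motifs, that of Pcdh8 held 1 TATAAA near its 3′ end, and that of Pcdh10 held 1 GGGCGG on the other strand. Of 32851 promoters of this length, 32.7% held GGGCGG, 12.4% TATAAA, 4.8% TAATTA and 13% CAGCTG. GC content was 54.4%, 51.2% and 63.2%, beside a median of 52.4% over all promoters. Promoters of 22 of the 57 members were matched.

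**Figure D2:**
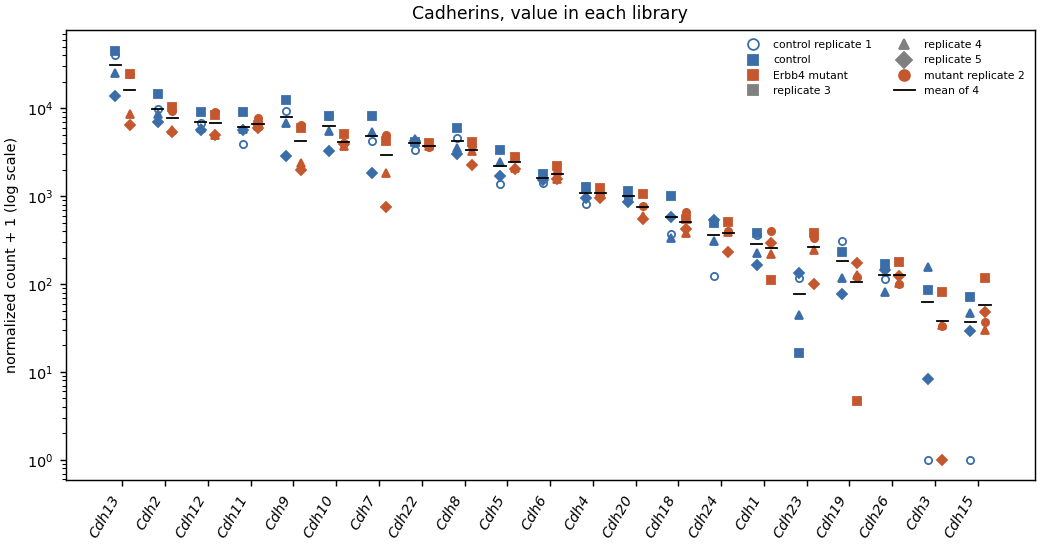
Normalised read count plus 1 (log axis) of the 21 cadherins tested in each library, ordered by mean, with controls in blue and mutants in red, the symbol giving the replicate number and the bar the mean of 4 libraries. Cdh13 runs from 13679 to 45067 in controls and from 6508 to 24578 in mutants, and in Cdh23 the mutants reach 380.3 while no control exceeds 132.

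Isoforms of Pcdha and Pcdhg could not be told apart, because the table holds them as a single row that joins 39 symbols (14 Pcdha, 22 Pcdhg and 3 Gm names) over chr18:36694473-37841961. The span encloses all 21 Pcdhb rows and other genes. Its normalised read counts were 121267, 213928, 173155 and 135448 in controls and 153460, 161907, 111671 and 109335 in mutants. The log2 fold change was -0.25 (SE 0.29, adjusted p = 0.775), but 0.11 under quantile normalisation, so no direction is given. Control 3 was highest and mutants 4 and 5 lowest, and the groups overlapped. The row made up 34.5% to 42.2% of the summed value of all members in each library. This is a share of counts, not per kilobase, and the row joins many genes, so it does not compare levels.

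Pcdhb genes, each of a single variable exon with no shared constant exon, were given row by row, with Pcdhb21 and Pcdhb22 joined. Of the 20 rows tested, 17 had a log2 fold change below 0, with a median of -0.36. Near-identical stretches among these paralogs make the division of reads among them uncertain. Their summed value was 27574, 41734, 25173 and 19393 in controls and 29521, 29681, 17894 and 14853 in mutants, so that the genotypes overlapped and control 5 was below mutants 2 and 3.

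Pcdhb14 (chr18:37447655-37451094, mm10) was called lower. It had 2165, 2909, 2054 and 1717 normalised counts in controls and 1614, 1435, 1329 and 1154 in mutants, with means of 2211 ± 503 and 1383 ± 193. Every mutant was below every control, as was true of 2.24% of all genes. The log2 fold change was -0.66 (SE 0.22, limma unadjusted p = 0.0112, adjusted p = 0.578, exact permutation p = 0.0286). It was close to the fold minimum, and without control 3 it was -0.52 and without mutant 5 -0.58, both smaller than 1.5-fold. Without the library labelled control 1 it was -0.66 and still called.

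The other abundant Pcdhb rows overlapped between genotypes. Pcdhb17 had 2653, 4068, 2856 and 1924 in controls and 2591, 3552, 1919 and 1611 in mutants (log2 fold change -0.26, SE 0.30), and Pcdhb20 2935, 4424, 2343 and 2424 against 3496, 2258, 1899.9 and 1393 (-0.45, SE 0.30, called lower without mutant 2 at -0.69). Pcdhb21/Pcdhb22 had 1631, 3894, 2192 and 1417 against 2228, 2195, 1282 and 1063 (-0.39, SE 0.35). In all 3 the highest control was control 3 and the lowest mutant was mutant 5. Pcdhb16 had 1752, 2587, 2498 and 1125 in controls and 2719, 3058, 1769 and 1314 in mutants (0.15, SE 0.34), with the sign changing when some libraries were left out.

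The lowest log2 fold changes were those of Pcdhb3 (-0.98, SE 0.51, adjusted p = 0.579), Pcdhb14 and Pcdhb6 (-0.62, SE 0.64). Pcdhb3 ran from 647 to 2544 in controls and from 390.0 to 1319 in mutants, and was called lower when control 5 (-1.35) or mutant 3 (-1.27) was left out. Pcdhb11 had the highest, 0.74 (SE 0.82). It was at 55.9 in the library labelled control 1 and at 929.8 to 1081 in the other controls, beside 670.3 to 1206 in mutants. Without that library it was -0.30. Pcdhb19 was at 1249 to 2346 in controls and 1403 to 3312 in mutants (0.39, SE 0.33, adjusted p = 0.683).

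The share of each Pcdhb row in the summed Pcdhb value of its library takes out variation that all rows have in common. Pcdhb19 took 4.53%, 5.62%, 6.39% and 6.47% in controls and 8.94%, 11.2%, 7.99% and 9.45% in mutants, or 5.75% ± 0.899 and 9.38% ± 1.33 (SD, n = 4). Its shares did not overlap between genotypes, which was true of no other of the 20 rows, and this was noticed after the values were seen and was not tested. A share also rises where other rows fall, and the Pcdhb19 counts overlapped (1249 to 2346 in controls, 1403 to 3312 in mutants). Pcdhb14 took 7.96% ± 0.780 in controls and 6.37% ± 1.44 in mutants, with overlap.

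**Figure D3:**
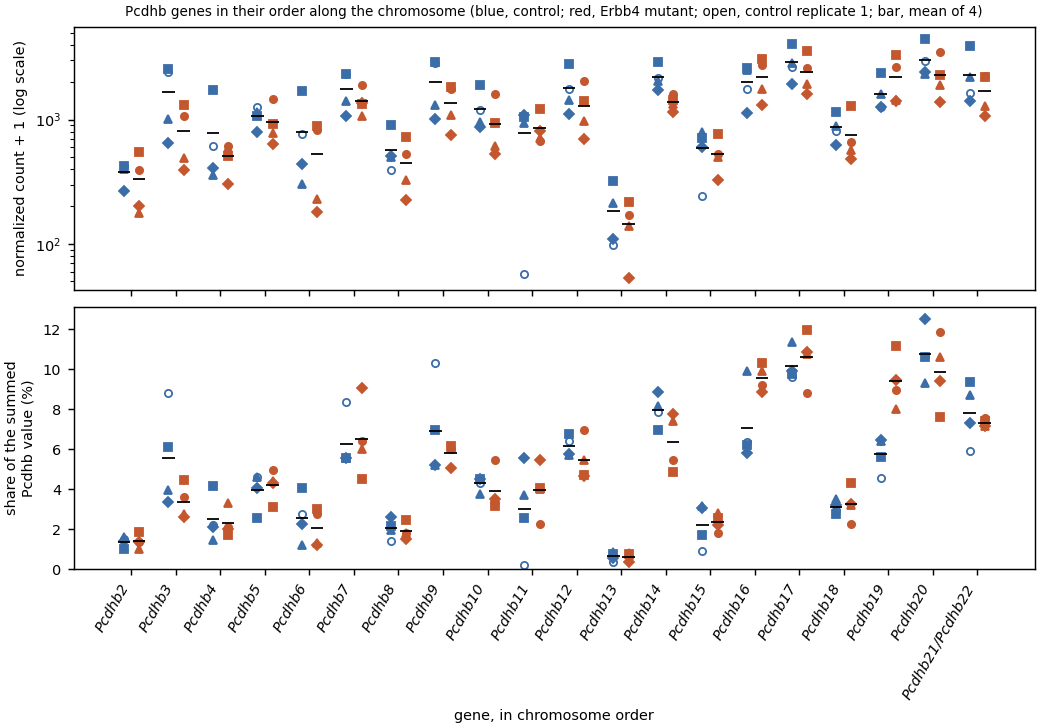
Pcdhb genes in the order of their position along the chromosome, with the normalised read count plus 1 (log axis) above and each gene's share of the library's summed Pcdhb value (%) below, controls in blue, mutants in red, the library labelled control 1 as an open circle and bars for the mean of 4. Pcdhb14 is lower in every mutant than in every control above, and the Pcdhb19 share is 4.53% to 6.47% in controls and 7.99% to 11.2% in mutants. The counts of Pcdhb19 above overlap between genotypes.

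Among the delta-1 protocadherins none was called (median -0.14, 3 of 4 below 0). Pcdh7 had 24959, 34153, 26247 and 24774 in controls and 25716, 30681, 19736 and 20353 in mutants (log2 fold change -0.20, SE 0.22). Pcdh9 had 18561, 31856, 25466 and 23508 in controls and 27918, 30028, 18138 and 18748 in mutants (-0.08, SE 0.25), with a sign that changed to 0.03 under quantile normalisation. Pcdh1 had 7459, 10837, 8863 and 8028 against 8476, 9628, 9897 and 10766 (0.15, SE 0.19), and Pcdh11x 3096 to 6008 against 2485 to 4834 (-0.27). In all 4 genes the groups overlapped.

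The delta-2 group had a median of -0.33, with 4 of 5 below 0 and none called. Pcdh8 (an activity-regulated protocadherin that promotes internalisation of N-cadherin) had 26696, 44009, 32543 and 20411 in controls and 30451, 28640.5, 14488 and 11849 in mutants. Its difference was -0.60 (SE 0.35, adjusted p = 0.589), and mutants 2 and 3 lay within the controls. Pcdh18 had 5750.4, 12278, 9962 and 8548 against 11544, 10469, 9876 and 9073 (0.21, SE 0.24), which was 0.01 without the library labelled control 1.

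Pcdh10 (chr3:45378398-45435623, an adhesion protein of axon pathways and of synapse elimination) was at 7302, 10470.0, 8211 and 7504 in controls and 6901, 7248, 5164 and 5944 in mutants. Every mutant was below every control, but the difference of -0.40 (SE 0.20, limma adjusted p = 0.578, exact permutation p = 0.0286) did not pass the rule. Mutant 3 and control 1 were 7248 and 7302, so that the gap between groups was narrow. Without the library labelled control 1 it was -0.46, again under the fold minimum. Pcdh17 and Pcdh19, the latter an X-linked gene of a female-limited epilepsy, had log2 fold changes of -0.33 and -0.05. Non-overlap in either direction was found in 3 of 54 members (Pcdhb14, Pcdh10 and Pcdh12) and in 5.01% of all genes.

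Pcdh12 (chr18:38267092-38284404), known as a protocadherin of endothelial cells, was called higher. It had 1042, 4453, 4144 and 4192 normalised counts in controls and 7195, 6056, 5031 and 6281 in mutants (log2 fold change 1.02, SE 0.42, limma unadjusted p = 0.0322, adjusted p = 0.578, exact permutation p = 0.0286). Every mutant was above every control, as was true of 2.77% of all genes. The size of the change rested on the library labelled control 1, without which it was 0.52 and under the fold minimum. It also missed the limit on p with edgeR (0.84) and when mutant 2 (0.94), mutant 3 (1.03) or mutant 5 (1.01) was left out. Of 6 endothelial markers, the receptors Flt1, Kdr and Tek were called higher, while Pecam1 (0.46), Cldn5 (-0.13) and Emcn (-0.24) were not called, nor was Cdh5 among the members (0.20). The summed value of the 6 was 137511 to 223471 in controls and 208303 to 226744 in mutants. The summed mural cell markers were 13685 to 31140 and 36206 to 45515, with Pdgfrb called higher (1 of 4). Of all genes, 3.89% were called higher. The library labelled control 1 gave the mural minimum, and the other controls were at 28902 to 31140. It was also the lowest of all libraries for Flt1 (29191), Kdr (11883), Tek (11940) and Pdgfrb (2578). The part of endothelial and mural cells in the Pcdh12 value was not tested. Pcdh20, the last of this group, had 1729 to 2872 in controls and 1626 to 2249 in mutants (-0.41, SE 0.22, adjusted p = 0.580).

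**Figure D4:**
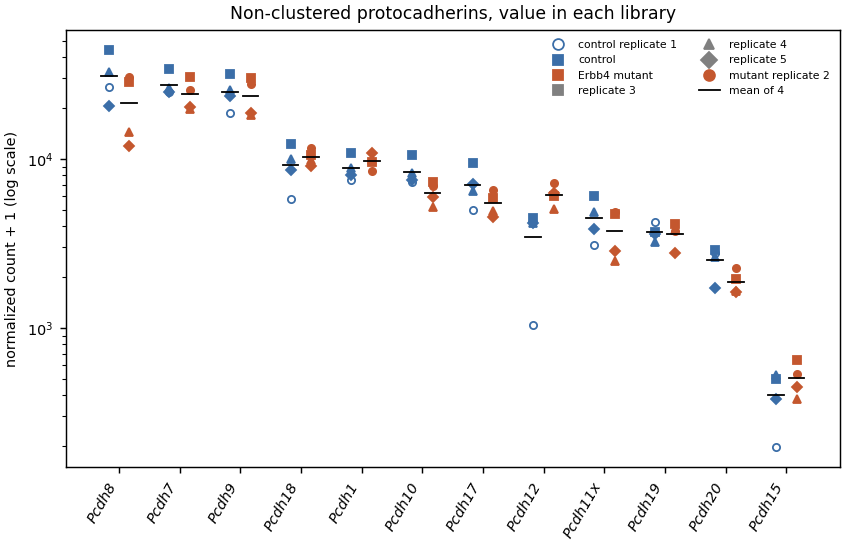
Normalised read count plus 1 (log axis) of the 12 non-clustered protocadherins in each library, controls in blue and mutants in red, the symbol giving the replicate number and the bar the mean of 4 libraries. Pcdh12 lies at 5031 to 7195 in mutants and 4144 to 4453 in controls other than the library labelled control 1 (1042), and Pcdh10 is lower in every mutant.

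Most members varied together between libraries of the same genotype. Control 3 held the highest control value for 44 of the 54 members (81.5%, beside 26.7% of all genes) and control 5 the lowest for 25 (46.3%, beside 19.9%). The library labelled control 1 was the lowest control for 22 (40.7%, beside 37.8%). Among mutants, mutant 3 was highest for 30 (55.6%, beside 26.9%) and mutant 5 lowest for 36 (66.7%, beside 23.8%). The summed markers of MGE interneurons (8 genes) were 42787, 76021, 41782 and 25488 in controls and 37136, 38518, 17452 and 14144 in mutants. In them too control 3 and mutant 3 were highest and control 5 and mutant 5 lowest of their genotype. The library labelled control 1 lay above controls 4 and 5 there, and in the summed cadherins (95692, against 53872.5 in control 5). In the summed clustered (148842, against 154841 in control 5) and other protocadherins (107017, against 113594) it was the lowest control. Parvalbumin interneuron markers (7 genes) ran from 22156 to 106734 in controls and from 11031 to 36550 in mutants, and somatostatin interneuron markers (5 genes) from 41143 to 394521 and from 12102 to 155241. Summed excitatory neuron markers (9 genes) stayed within 110021 to 152153 in all libraries. Single genes weighed heavily in these sums. Slc17a7 alone had 87106 to 122229 over all libraries, and Sst 31270 to 367992 in controls and 5964 to 143143 in mutants. In such material fewer interneurons, fewer of their synapses and less RNA per cell cannot be told apart, and the part of these markers in the members' values was not tested.

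**Figure D5:**
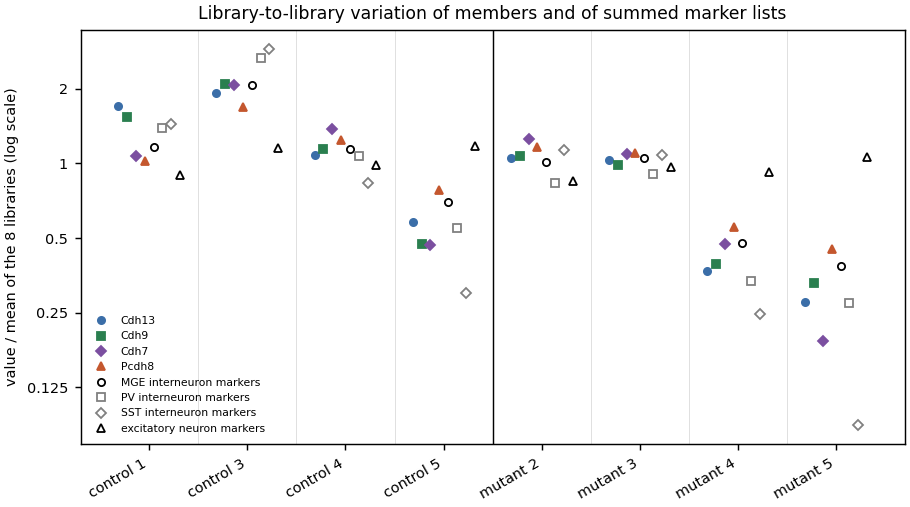
Value in each library divided by the mean of the 8 libraries (log axis) for Cdh13, Cdh9, Cdh7 and Pcdh8 (filled) and for summed marker lists (open), with a line between the 4 controls and the 4 mutants. Control 3 is high and control 5, mutant 4 and mutant 5 are low for these 4 members and the summed interneuron markers. The summed excitatory neuron markers, mostly Slc17a7, stay near 1. Not every member follows this, as Pcdh1 is higher in mutants 4 and 5 (9897 and 10766) than in mutants 2 and 3 (8476 and 9628).

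Marker lists of cell types that the libraries could hold were compared between genotypes in the same fit. Of all genes tested, limma called 3.89% higher and 3.22% lower in mutants. All 8 MGE markers had a log2 fold change below 0 (median -0.51, Gad1 and Gad2 called lower). Of 7 parvalbumin markers, 4 were called lower (Pvalb, Kcnc1, Syt2 and Pthlh, median -1.42), and of 5 somatostatin markers 1 (Chodl, median -0.79). Of 7 oligodendrocyte markers 3 were called lower (Mog, Mag and Opalin, median -0.64), and among 9 excitatory markers Neurod6 was called lower (median -0.21). Interneurons of the caudal ganglionic eminence (-0.60), oligodendrocyte precursors (-0.03), astrocytes (-0.11) and microglia (-0.37) had no marker called by limma, while edgeR called 1 and DESeq2 called 2 of the caudal markers lower and DESeq2 1 of the microglial ones. Of 6 leptomeningeal markers Foxc1 was called higher (median 0.15). The medians of the endothelial and mural lists were 0.58 and 0.54.

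The spread between libraries of a genotype limited the comparison. The within-genotype SD of the log2 value had a median of 0.51 over the members, 0.47 over cadherins, 0.60 over clustered and 0.33 over other protocadherins, beside 0.65 over all genes. For genes with a mean of at least 1000 it was 0.44 over 36 members and 0.37 over 8324 genes. Among these Cdh7 (1.09), Pcdhb3 (0.91), Cdh9 (0.90) and Cdh13 (0.89) varied most.

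Partners and regulators of the family were described as further lists, beside the 3.89% of all genes that limma called higher and the 3.22% called lower. Of 14 catenins and junction proteins, the p120 catenin gene Ctnnd1 (log2 fold change 1.15) and vinculin (Vcl, 0.86) were called higher and none lower (median 0.37). Neither edgeR nor DESeq2 called Ctnnd1, and both called Jup (plakoglobin) higher, which limma did not (0.56). Of the 15 atypical and related cadherins tested, such as the Fat, Dchs and Celsr genes, none was called by limma, edgeR or DESeq2, and none passed an unadjusted p of 0.05 (median 0.06). Of 12 effectors of protocadherins, the actin regulator Wasf2 was called higher (0.87, median 0.21), and edgeR and DESeq2 also called Brk1 lower (-0.63 with limma, not called).

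Of 11 regulators of protocadherin promoter choice, 3 were called higher, beside 3.89% of all genes. They were the cohesin genes Stag1 (0.73) and Stag2 (1.10) and the chromatin protein gene Smchd1 (0.62). The median was 0.17, while Ctcf, which loops these promoters to their enhancer, had 0.17 and was not called. Of 8 proteases that cut cadherins, Adam10 (0.68) and Adam17 (0.59) were called higher and Psen2 (-1.18) was among those called lower (median -0.41). Neither edgeR nor DESeq2 called Adam10, and edgeR did not call Psen2. Every partner gene called had an adjusted p of 0.578. The library labelled control 1 was the lowest of all 8 for Ctnnd1 (828), Vcl (4638), Wasf2 (2117), Stag1 (1317) and Stag2 (522). The same held for Adam10 (2084) and Adam17 (2755), but not for Smchd1 (630, with control 3 at 530).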

How the data were processed

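Ribosome-associated RNA of 4 control and 4 Erbb4 mutant libraries was analysed. The study used mice of both sexes. The authors aligned reads with STAR 2.4.0 to mm10, counted them on constitutive regions of Fast DB genes and divided them by a DESeq2 size factor per library, and the deposited normalized counts are this signal. Because only constitutive regions were counted, transcripts joined in a row cannot be separated. Dividing by the value of 1 read gave whole reads for 100% of values in all 8 libraries (tolerance 0.01). Depth was 51010687 to 80226984 reads. Groups came from the sample labels. The study mentions sequencing batches, and the labels do not assign libraries to them, so no values within a labelled batch are given. Per the study's methods, replicates were biological and came from separate brains and litters.

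Genes with a mean of at least 10 over all 8 libraries were tested with limma 3.58.1 (with trend) in R 4.3.3 on log2(normalized count + 1), with no covariate and Benjamini-Hochberg adjustment over all genes tested, and fold changes are on this scale. Genes were called where the fold change reached 1.5 and the unadjusted p did not exceed 0.05. edgeR 4.0.16 and DESeq2 1.42.0 were run on recovered reads as alternatives, beside other pseudocounts, filters, scalings, library weights, a replicate block and leaving out each library. The tests were tried on simulated data. Exact permutation tests were two-sided. Members named in full were those called, those not overlapping between genotypes, the 5 highest of each class by mean and the 3 highest and lowest fold changes of each class. Members and lists were chosen with earlier results of these data known. Some genes of the marker and partner lists are not reported here.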

Additional observations from a re-analysis of the deposited data

Results flagged for a closer look

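In 3 members a single library stood apart from the other 3 of its genotype by Dixon's criterion. Pcdh12 was at 1042 in the library labelled control 1, where the other controls were at 4144 to 4453. Pcdhb11 was at 55.9 in the same library, where the other controls were at 929.8 to 1081. Pcdh7 was at 34153 in control 3, where the other controls were at 24774 to 26247. Of 56 groups examined 3 stood apart, where chance gives about 2.8.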

How the results depend on the processing

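Pseudocounts of 0.5 and 10, the other filters and TMM scaling left every count of calls as reported and every named member's direction unchanged. Calls changed in number with some tests. Limma without trend and edgeR called 0 other protocadherins higher. Library weights called 4 cadherins, 2 clustered and 2 other protocadherins lower and 1 cadherin and 1 other protocadherin higher (10 members, 18.5%, beside 11.9% of all genes). At an adjusted p of 0.05 0 cadherins were called higher, 0 clustered protocadherins lower and 0 other protocadherins higher. Over the 8 fits that each left out a library, calls ran from 0 to 3 for cadherins lower, 0 to 1 for cadherins higher, 0 to 3 for clustered protocadherins lower and 0 to 1 for other protocadherins higher, with 1 member called in all without mutant 5 and 7 without control 5. The cause was not tested.

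Signs changed under quantile normalization for Pcdh9 (0.032) and Pcdha/Pcdhg (0.11), under library weights for Cdh24 (-0.15), Pcdh15 (-0.0039), Pcdhb11 (-0.056) and Pcdhb16 (-0.12), and for Cdh12 with edgeR (0.0030) and DESeq2 (0.0067). Leaving out a library turned the sign of 6 named members: over the 8 such fits Cdh11 ran from -0.026 to 0.38 (below 0 without control 1), Cdh24 from -0.23 to 0.47 (below 0 without control 1), Pcdhb11 from -0.30 to 1.11 (below 0 without control 1), Cdh12 from -0.20 to 0.096 (above 0 without control 3, mutant 4 or mutant 5), Pcdh9 from -0.21 to 0.050 (above 0 without the same libraries) and Pcdhb16 from -0.099 to 0.37 (below 0 without control 5 or mutant 3).

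Both genotypes have replicates 3, 4 and 5, but deviations of same-numbered libraries correlated at only 0.102, 0.097 and 0.087, and control 5 correlated best with mutant 4 (0.096), so the number was not taken as a pairing. Controls 1 and 3 correlated with mutants 2 and 3 at 0.021 to 0.102 and controls 4 and 5 with mutants 4 and 5 at 0.087 to 0.097, while across these sets, which no label names as batches, all values were below 0 (-0.124 to -0.031). With the replicate number as a block, 13 members were called (24.1%, beside 10.6% of all genes), namely 3 cadherins lower (Cdh13 at -1.18 and Cdh9 at -1.05 among them), 1 cadherin higher, 8 clustered protocadherins lower, 1 other protocadherin lower and 0 other protocadherins higher. Control 1 and mutant 2 have no library of the same number in the other genotype, so they added nothing to the genotype difference in this fit. It rested on replicates 3, 4 and 5 alone. Under the block the sign changed for Cdh11 (-0.10), Cdh24 (-0.27), Pcdh18 (-0.052), Pcdhb11 (-0.20) and Pcdhb16 (-0.011). Genes under a mean of 10 were not tested.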
